A study of Mus musculus with 7 samples.

Results

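The transcripts of 6 genes that mark resident-type macrophages, Mrc1, Folr2, Lyve1, Timd4, Cbr2 and Cd163, were followed in macrophages sorted from injured mouse sciatic nerve. The genes were taken by exact symbol, and each of the 6 was found among the 23361 genes quantified in each library. RNASeq was carried out on wild-type BALB/cJ mice in which the left sciatic nerve had been cut and repaired inside a conduit. F4/80+ CD14+ CD11b+ CD16/32+ cells that lacked lineage markers of granulocytes, lymphocytes and red cells were sorted from the tissue bridging the gap on day 5 (3 libraries), day 14 (2 libraries) and day 28 (2 libraries) after repair. The exclusion markers also covered fibroblasts, and the antibodies listed by the study included an endothelial marker. All groups carried the same injury and no deleted gene. The age of these mice, and whether a library held the cells of 1 mouse or of several, are not given in the sources used here. Libraries of uninjured nerve were not analysed here, so the levels below have no steady-state reference.

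Most tissues hold macrophages that live there before any injury, and an injured nerve also draws in monocytes from the blood that turn into macrophages. Resident and perivascular macrophages of many mouse tissues are known for high levels of Mrc1, Folr2, Cd163, Cbr2 and Lyve1, and some long-lived populations also carry Timd4, but several of these genes can be induced in monocyte-derived macrophages as well. By function, Mrc1 (CD206) is an endocytic receptor for mannose-bearing glycoproteins, Cd163 takes up haemoglobin bound to haptoglobin, and Folr2 is the beta folate receptor. Lyve1 binds hyaluronan, Timd4 (TIM-4) is a receptor for phosphatidylserine on dying cells, and Cbr2 is a carbonyl reductase.

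The genes lie on 4 chromosomes of the GRCm38 build (GENCODE annotation). Mrc1 spans 14229392 to 14332057 on the plus strand of chromosome 2, and Cd163 spans 124304656 to 124330527 on the plus strand of chromosome 6. Folr2 (101839988 to 101857194) and Lyve1 (110850607 to 110863239) are both on the minus strand of chromosome 7. Timd4 (46810800 to 46844332, plus strand) and Cbr2 (120729489 to 120732114, minus strand) are both on chromosome 11.

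RefSeq promoter sequence (GRCm38.p6) was at hand for 5 of the 6 genes, in 6 windows of 250 bases before a transcript start. The reference is the C57BL/6J genome, not that of BALB/cJ. Windows are shown for Mrc1 and for the upstream start of Folr2, because both genes fell over the time course, and for Timd4, which did not. Each is printed 5′ to 3′ on the strand of the gene, and capitals mark 2 sets of letters on either strand, AGGAAGT and a composite motif, GGAA followed after 2 bases by GAAA. They occur in recognition sites of PU.1, the macrophage ETS factor, alone or next to an interferon regulatory factor.
Mrc1, chr2:14229164-14229413, plus strand: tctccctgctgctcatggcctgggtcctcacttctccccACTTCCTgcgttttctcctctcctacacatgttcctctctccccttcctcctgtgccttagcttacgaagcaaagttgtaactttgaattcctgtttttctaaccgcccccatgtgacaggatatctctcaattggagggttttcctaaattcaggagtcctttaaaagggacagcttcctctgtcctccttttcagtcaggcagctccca
Folr2, chr7:101857191-101857440, minus strand: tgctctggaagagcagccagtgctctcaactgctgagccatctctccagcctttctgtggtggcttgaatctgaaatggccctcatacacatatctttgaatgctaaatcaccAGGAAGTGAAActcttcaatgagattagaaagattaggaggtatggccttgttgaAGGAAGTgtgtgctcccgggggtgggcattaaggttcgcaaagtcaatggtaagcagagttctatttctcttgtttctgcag
Timd4, chr11:46810549-46810798, plus strand: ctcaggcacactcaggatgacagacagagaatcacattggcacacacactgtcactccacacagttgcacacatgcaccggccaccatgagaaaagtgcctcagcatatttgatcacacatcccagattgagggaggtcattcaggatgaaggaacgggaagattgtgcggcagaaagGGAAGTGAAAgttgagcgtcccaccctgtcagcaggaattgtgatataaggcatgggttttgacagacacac

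The search covered both strands of 32851 mouse promoter windows of the same length. AGGAAGT was present in 7.69% of them and the composite motif in 2.30%. In Mrc1, AGGAAGT lay on the opposite strand, 211 to 205 bases before the start. In Folr2 it lay 137 to 131 and 82 to 76 bases before the start, and the copy farther from the start overlapped the composite motif at 136 to 127. Timd4 held the composite motif 72 to 63 bases before its start. Neither motif was in the windows of Cd163, Cbr2 or the downstream start of Folr2. TGCTGA, part of the MAF recognition site (16.1% of all windows), was in both Folr2 windows and was found 2 times in Timd4, and the AP-1 letters TGANTCA (6.75%) were in the downstream Folr2 window only. The motifs were chosen after the sequences had been seen, and the letters describe sequence, not binding.

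Levels are given as FPKM, which corrects fragments for the length of the transcript and the size of the library and allows genes of different length to be set side by side. Each library had between 18027190 and 35247116 fragments in genes. At day 5 the 6 genes fell into 3 tiers. Folr2 was highest at 369.4 ± 14.8 FPKM (SD, n = 3), followed by Mrc1 at 272.1 ± 5.97 and Cbr2 at 266.3 ± 12.5. The values of Folr2 did not overlap with those of Mrc1, whereas Mrc1 and Cbr2 overlapped and Mrc1 was the higher of them in 1 of 3 libraries. Cd163 formed a middle tier at 18.22 ± 0.364 FPKM, with a 14.6-fold gap below Cbr2. Timd4 (2.256 ± 0.796) and Lyve1 (1.723 ± 0.826) were lowest and overlapped each other, and Cd163 was 8.08-fold above Timd4.

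Among the 12430 genes above a floor of 3 fragments in every day 5 library, Folr2 ranked 251st, Mrc1 346th and Cbr2 353rd by mean FPKM. Cd163 ranked 3983rd, Timd4 9008th and Lyve1 9434th. By day 28 the first group had moved down, to 453rd, 489th and 667th of 12982 genes. Timd4 was then 8184th and Lyve1 7721st. Folr2 and Mrc1 overlapped on day 28, when Cbr2 lay below both in each library, and Lyve1 and Timd4 again overlapped.

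**Figure D1:**
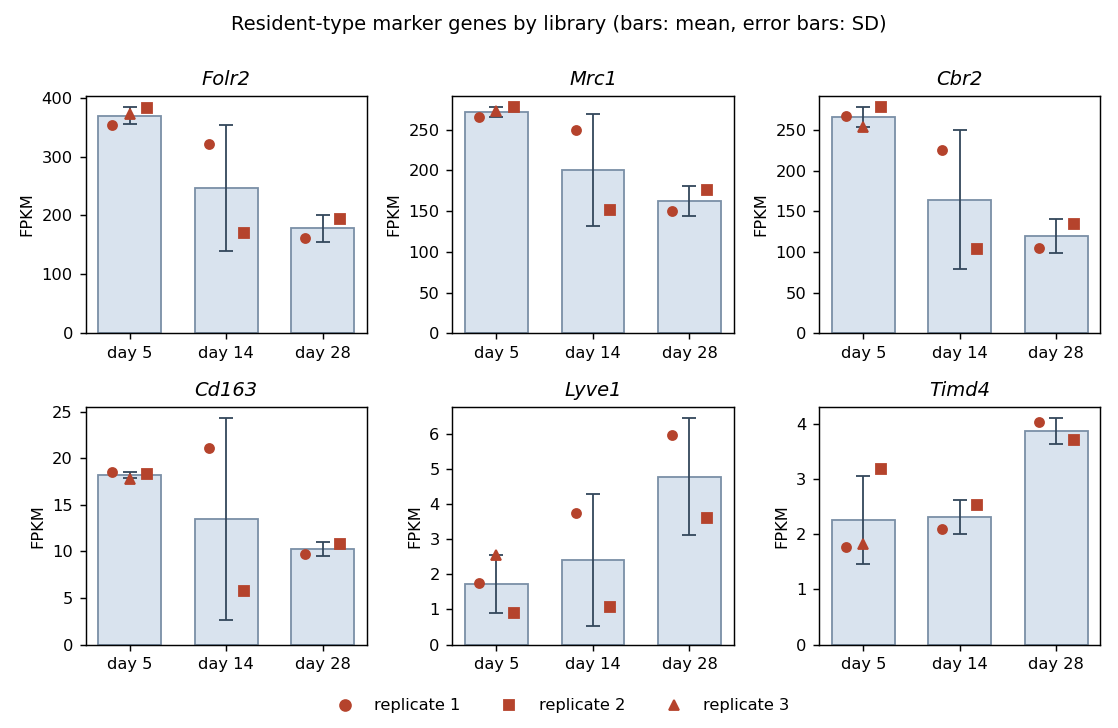
FPKM of the 6 genes in each library against day after repair. Points are libraries, bars are group means and error bars are SD (n = 3, 2 and 2), each panel has its own linear axis from 0, and the 4 genes Mrc1, Folr2, Cbr2 and Cd163 are lower in both day 28 libraries than in any day 5 library while Lyve1 and Timd4 are higher.

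The comparison of day 28 with day 5 asked how the sorted population differed between the start and the end of the time course. Folr2, Cbr2 and Mrc1 fell, to 0.488, 0.453 and 0.604 of their day 5 level in the fit. No member rose by the test. Lyve1 and Timd4 were higher in both day 28 libraries than in any day 5 library, and Cd163 was lower in both, but these 3 differences did not pass. In all, 3 of the 6 genes were called at an adjusted p under 0.05 (edgeR quasi-likelihood F test, Benjamini-Hochberg over 12858 genes), all of them lower, while 7.51% of all genes tested were called lower and 15.2% in either direction. The libraries of days 5 and 28 did not overlap in any of the 6 genes, with day 28 lower in 4 and higher in 2, as they did for 25.6% and 26.0% of all genes. Bulk RNA cannot tell fewer cells of a type from less RNA per cell, and the p-values measure only the spread between these libraries.

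Folr2 measured 353.3, 382.5 and 372.3 FPKM in day 5 replicates 1 to 3, 321.8 and 170.4 FPKM in day 14 replicates 1 and 2, and 162.4 and 194.8 FPKM in day 28 replicates 1 and 2. Its day 5 libraries lay together and above all others, and day 14 replicate 2 lay with the day 28 libraries. From day 5 to day 28 Folr2 fell by 1.03 on the log2 scale (SE 0.23, 95% interval −1.55 to −0.52, adjusted p = 0.0186, edgeR). These values rest on 3300 to 7574 fragments per library.

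Mrc1 was at 265.6, 277.4 and 273.1 FPKM on day 5, at 249.1 and 151.9 FPKM on day 14, and at 149.9 and 175.9 FPKM on day 28. The first day 14 library was close to the day 5 values, and the second was within the day 28 values. The log2 difference between day 28 and day 5 was −0.73 (SE 0.19, 95% interval −1.16 to −0.29, adjusted p = 0.0347, edgeR), on 17326 to 33123 fragments.

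Cbr2 gave 267.0, 278.5 and 253.5 FPKM on day 5, 225.2 and 103.8 FPKM on day 14, and 105.2 and 134.4 FPKM on day 28. It again separated day 5 from all later libraries. Its log2 difference, −1.14 (SE 0.27, 95% interval −1.75 to −0.53, adjusted p = 0.0237, edgeR), had the lowest point estimate of the 6 genes, but the intervals of Cbr2, Folr2 and Mrc1 overlapped and the differences between them were not tested.

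Cd163 was at 18.51, 18.34 and 17.81 FPKM on day 5, at 21.14 and 5.797 FPKM on day 14, and at 9.698 and 10.8 FPKM on day 28. The day 14 libraries took the highest and the lowest of all 7 values, and the other groups were tight. The log2 difference between day 28 and day 5 was −0.82 (SE 0.40, 95% interval −1.71 to 0.08) and was not called (adjusted p = 0.195, edgeR with all 7 libraries). In a fit on the day 5 and day 28 libraries alone, which leaves the day 14 spread out, Cd163 was called lower (−0.82, adjusted p = 0.000378).

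Lyve1, the hyaluronan receptor, was measured at 1.74, 0.8882 and 2.541 FPKM on day 5, at 3.742 and 1.074 FPKM on day 14, and at 5.955 and 3.605 FPKM on day 28. Both day 28 libraries were above all day 5 libraries, and 1 day 14 library was above the lower day 28 library. The log2 difference was 1.49 (SE 0.51, 95% interval 0.34 to 2.64, adjusted p = 0.0803, edgeR). It rests on 44 to 134 fragments on day 5 and 167 to 554 on day 28. DESeq2 called it (1.47, adjusted p = 0.0189).

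Lyve1 is also a marker of lymphatic endothelium, and 3 of the 6 lymphatic endothelial markers examined, Prox1, Ccl21a and Mmrn1, were at or below 3 fragments in all 7 libraries. The summed FPKM of that list was 224.7 to 284.5 on day 5, 123.5 to 170.6 on day 14 and 139.0 to 173.3 on day 28. Nearly all of it was Pdpn, which many macrophages also express, and Flt4 had 2 to 19 fragments. The summed FPKM of the 6 blood endothelial markers was 15.59 to 27.46, 10.66 to 14.96 and 6.118 to 10.06 on the same days. Its members differed, with Kdr (−3.02, adjusted p = 0.0029, edgeR) and Pecam1 (−1.80, adjusted p = 0.0145) lower on day 28 than on day 5, Vwf (2.07, adjusted p = 0.021) and Tek (4.63, adjusted p = 0.0208, on 0 to 46 fragments) higher, and Cdh5 and Cldn5 not called. The part of endothelial cells in the Lyve1 values was not tested.

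Timd4 was at 1.767, 3.174 and 1.826 FPKM on day 5, at 2.099 and 2.527 FPKM on day 14, and at 4.036 and 3.71 FPKM on day 28. Both day 28 libraries were above the other 5. Against day 5 the log2 difference was 0.80 (SE 0.29, 95% interval 0.15 to 1.45, adjusted p = 0.0918, edgeR), from 79 to 129 fragments on day 5 and 141 to 308 on day 28. It was called in 1 of 15 alternative fits, that without day 5 replicate 2, the highest of its group (1.12, adjusted p = 0.0424), with adjusted p up to 0.304 in the others and 0.0922 by DESeq2.

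**Figure D2:**
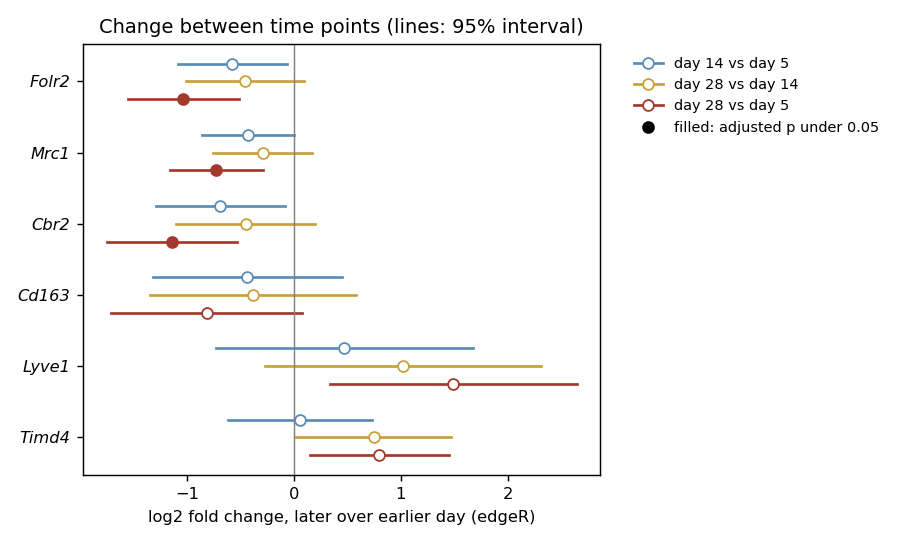
Log2 difference of each of the 6 genes in the 3 pairwise comparisons of days. Points are estimates of the edgeR fit over 7 libraries, bars are 95% intervals and filled points passed an adjusted p under 0.05, which only Folr2, Cbr2 and Mrc1 did, and only for day 28 against day 5.

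Calls for Folr2, Cbr2 and Mrc1 depended on the libraries in the fit. The log2 differences between day 28 and day 5 stayed negative for these 3 genes and for Cd163 when any 1 library was left out, at −1.18 to −0.91 for Folr2, −1.33 to −0.97 for Cbr2, −0.85 to −0.62 for Mrc1 and −0.90 to −0.74 for Cd163. Leaving out a day 5 or a day 28 library removed the calls of Folr2, Cbr2 and Mrc1, with adjusted p from 0.0529 to 0.204 (edgeR), while leaving out either day 14 library kept them and added Cd163 and Lyve1. The number of all genes called moved likewise, from 452 without day 28 replicate 1 to 2746 without day 14 replicate 1.

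The step from day 5 to day 14 held no called member, against 4.78% of all genes tested. By edgeR 3 members had an unadjusted p under 0.05, as had 24.0% of all genes. They were Folr2 (log2 difference −0.58, SE 0.23, adjusted p = 0.16), Cbr2 (−0.69, SE 0.27, adjusted p = 0.158) and Mrc1 (−0.43, SE 0.19, adjusted p = 0.205). DESeq2 called 1 member, Cbr2 (adjusted p = 0.0483). In these 3 genes both day 14 libraries lay below the lowest day 5 library, a pattern shown by 21.4% of genes tested. In Cd163, Lyve1 and Timd4 the groups overlapped. This comparison and that of day 28 with day 5 share the day 5 libraries.

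The step from day 14 to day 28 also held no called member, against 0.0622% of all genes tested. By edgeR 1 member had an unadjusted p under 0.05, as had 12.2% of all genes. It was Timd4 (0.75, SE 0.32, 95% interval 0.02 to 1.47, adjusted p = 0.396), whose day 28 libraries were both above its day 14 libraries, as in 19.3% of genes tested. DESeq2 also called 0 members here. For Lyve1 the log2 difference was 1.02 (SE 0.57, adjusted p = 0.507), and for Folr2, Cbr2, Cd163 and Mrc1 it was −0.46, −0.45, −0.38 and −0.29, with overlapping libraries in all 5. Whether the second step differed from the first was tested directly. No member passed that test (adjusted p from 0.644 to 0.983, edgeR, against 0.0156% of all genes called) and 0 had an unadjusted p under 0.05, against 12.6% of all genes. DESeq2 also called 0 of them. The test did not separate the steps, so the fall of Folr2, Cbr2 and Mrc1 cannot be placed in either step.

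The day 14 libraries differed from each other in 5 of the 6 genes. Replicate 1 was above replicate 2 by 3.65-fold in Cd163, 3.49-fold in Lyve1, 2.17-fold in Cbr2, 1.89-fold in Folr2 and 1.64-fold in Mrc1, and only Timd4 was lower in replicate 1, at 0.83 of replicate 2. Of 7613 genes with a mean of at least 5 FPKM, 0.749% had a larger difference between these libraries than Cd163, 2.52% a larger one than Cbr2 and 7.16% a larger one than Mrc1. The day 28 libraries were closer, with replicate 1 at 0.782 of replicate 2 for Cbr2, 0.834 for Folr2, 0.852 for Mrc1 and 0.898 for Cd163, and above it by 1.65-fold for Lyve1 and 1.09-fold for Timd4.

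Without day 14 replicate 1, the comparison of day 14 with day 5 called Cd163 (−1.64, adjusted p = 0.000128), Cbr2 (−1.34, adjusted p = 0.000695), Folr2 (−1.10, adjusted p = 0.0013) and Mrc1 (−0.83, adjusted p = 0.00493) lower. Without day 14 replicate 2 none of the 4 was called there, Cd163 was at 0.22, and all 4 were instead called lower from day 14 to day 28, with log2 differences from −1.04 for Cd163 to −0.60 for Mrc1. Many other genes were called in these fits too, 979 of 13329 lower on day 14 than on day 5 in the first and 440 of 13377 lower on day 28 than on day 14 in the second. In each of these fits day 14 is a single library, assumed to vary like the other groups.

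Other cell markers moved between the same libraries. The summed FPKM of 7 fibroblast markers was 223.1 in day 14 replicate 1 and 81.17 in replicate 2, against 28.81 to 74.11 on day 5 and 35.57 to 56.97 on day 28, and for erythroid markers it was 59.65 and 8.283 in the day 14 libraries. The monocyte genes Ly6c2 (114.3 and 18.19 FPKM) and Plac8 (211.7 and 66.51 FPKM) were also higher in replicate 1. Fn1 (752.5 and 1742 FPKM) and Ccr2 (66.25 and 82.65 FPKM), also followed as monocyte markers, were lower in replicate 1 than in replicate 2. Csf1r, the receptor for the macrophage growth factor CSF1, was at 493.5 and 453.9 FPKM. The part of these markers in the results for the 6 genes was not tested.

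**Figure D3:**
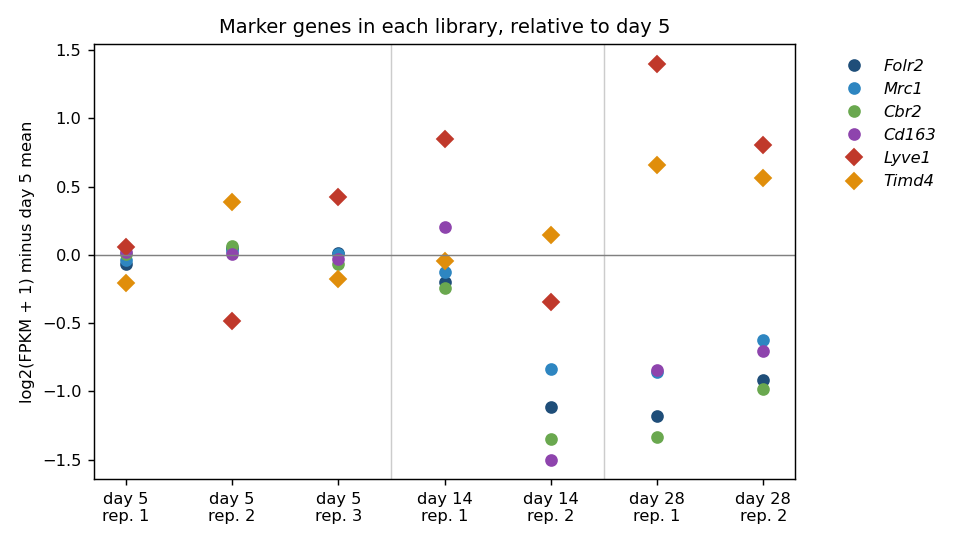
Log2(FPKM + 1) of each gene in the 7 libraries minus its mean over the day 5 libraries, 1 point per gene and library, with vertical lines between days. Folr2, Cbr2, Mrc1 and Cd163 (circles) lie close to the day 5 mean on day 5 and in day 14 replicate 1 and well below it in the other 3 libraries, while Lyve1 and Timd4 (diamonds) are above it in both day 28 libraries.

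Over the 7 libraries, 4 of the genes had similar profiles. After each profile of log2(FPKM + 1) was centred on its own mean, the root mean square difference was 0.095 between Folr2 and Cbr2, 0.141 between Folr2 and Mrc1, 0.218 between Mrc1 and Cbr2, and 0.232 to 0.277 between Cd163 and each of these 3. It was 0.604 between Lyve1 and Timd4, and 0.636 to 1.01 between either of them and the first 4. The ratio of Cbr2 to Folr2 accordingly ran only from 0.609 to 0.756 over all 7 libraries, although Folr2 itself ran from 162.4 to 382.5 FPKM. For scale, the median difference from 7552 other genes was 0.384 for Mrc1, 0.513 for Folr2, 0.586 for Cbr2 and 0.58 for Cd163. Genes outside the 6, named below, came closer to Mrc1, Cbr2 and Cd163 than any member did. The points share 7 libraries with different depth, and the values are a description.

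Set against Mrc1 within each library, the low genes took larger shares on day 28. Lyve1 was 0.655%, 0.32% and 0.93% of the Mrc1 level on day 5, 1.5% and 0.707% on day 14, and 3.97% and 2.05% on day 28. For Timd4 it was 0.665%, 1.14% and 0.668%, then 0.843% and 1.66%, then 2.69% and 2.11%. Both day 28 libraries were above the other 5 in each ratio. A fall of Mrc1 raises these shares by itself, so they are not separate evidence of a rise. Lyve1 itself was at 3.742 FPKM in day 14 replicate 1 and at 3.605 FPKM in day 28 replicate 2. Folr2 was 1.33, 1.38 and 1.36 times Mrc1 on day 5, 1.29 and 1.12 times on day 14, and 1.08 and 1.11 times on day 28, so that its day 5 values were above all later ones.

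Among 7552 other genes with a mean of at least 5 FPKM, the profiles most like that of Mrc1 were those of Atp8a1, a phospholipid flippase (root mean square difference 0.077), and Cdkn1a, the cell cycle inhibitor p21 (0.082). For Folr2 they were Plekhg2 (0.103) and AI607873 (0.105), and for Cbr2 they were AI607873 (0.082) and Zswim4 (0.109). AI607873 was at 88.31, 94.81 and 95.67 FPKM on day 5, 74.77 and 34.12 on day 14, and 39.94 and 46.59 on day 28, so it too had a high and a low day 14 library. For Cd163 they were Mtmr10 (0.14) and Slc11a2 (0.185), the iron transporter DMT1. The nearest to Timd4 were Gclc, a subunit of the glutathione-synthesizing ligase (0.088), and Zdhhc12 (0.089). Lyve1 had no close match, with 0.372 for Smim4 against 0.634 for the spread of Lyve1 around its own mean.

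Other genes known from resident and perivascular macrophages did not move as 1 group. Of 30 listed, 29 were tested. By edgeR, 7 were lower on day 28 than on day 5, 3 were higher and 19 were not called. Of all 12858 genes tested, 965 were lower and 995 higher. The median log2 difference of the list was −0.35, against −0.77 for the 6 members and 0.03 for all genes tested. On day 14 against day 5, 2 of the list were higher and 2 lower, against 365 and 249 of all genes. Between days 14 and 28, 0 were called, against 8 of all genes. The list was chosen with earlier results of these data known.

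The 7 that fell included Cd5l, a secreted macrophage scavenger protein, with 16.56 to 31.77 FPKM on day 5 and 3.311 and 2.178 FPKM on day 28 (log2 difference −3.01, SE 0.42, adjusted p = 0.00308, edgeR). Pf4, the chemokine platelet factor 4, went from 1456 to 2067 FPKM on day 5 to 332.2 and 256.8 FPKM on day 28 (−2.61, SE 0.21, adjusted p = 0.000541). F13a1, a subunit of coagulation factor XIII, fell by 1.30 (SE 0.30, adjusted p = 0.0209). Ltc4s, the leukotriene C4 synthase, fell from 88.27 to 115.6 FPKM on day 5 to 64.99 and 37.33 FPKM on day 28 (adjusted p = 0.0194). The other 3 were Dab2, Fcgrt and Ninj1. Of these, Pf4 and F13a1 were already called lower on day 14 (adjusted p = 0.00554 and 0.0366). Over 15 alternative fits of day 28 against day 5, the call was lost in 6 for F13a1, in 4 for Ltc4s and in 0 for Cd5l and Pf4.

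The 3 that rose were Retnla, the secreted protein RELMalpha, Igf1, a growth factor, and Vsig4, a complement receptor. Retnla was at 3.206 to 6.323 FPKM on day 5, 117.2 and 58.36 on day 14, and 95.48 and 50.78 on day 28 (3.85, SE 0.39, adjusted p = 0.000931, edgeR). Igf1 went from 12.75 to 16.66 FPKM on day 5 to 30.6 and 31.71 FPKM on day 28 (1.07, SE 0.15, adjusted p = 0.0028). Vsig4 rose by 2.04 on the log2 scale (SE 0.52, adjusted p = 0.031) from few fragments, 9 to 103 per library. Its call was lost in 5 of 15 alternative fits, those of Retnla and Igf1 in 0. These 3 genes rose between the same libraries in which Folr2, Cbr2 and Mrc1 fell. Of the abundant genes not called, Sepp1, the selenium carrier, differed by −0.59 (adjusted p = 0.0529) and Ccl8, a chemokine, by −0.98 (adjusted p = 0.136).

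**Figure D4:**
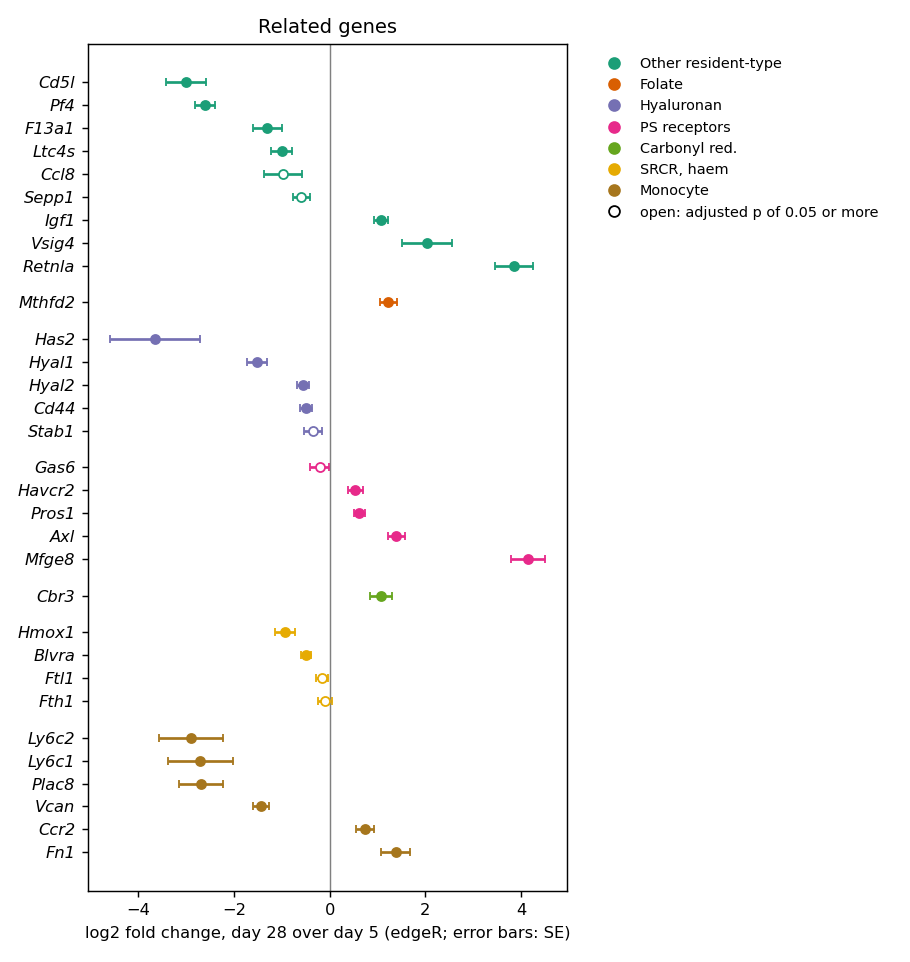
Log2 difference between day 28 and day 5 for the genes named from each list related to the 6 members, as edgeR estimates with their SE as error bars. Filled points passed an adjusted p under 0.05, and the largest rise is that of Mfge8 (4.15) and the largest fall that of Has2 (−3.66), which rests on 1 to 26 fragments per library.

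Genes related to each member by family or by function were followed as well, from day 5 to day 28. Between these days 995 of all 12858 genes tested were called higher and 965 lower. The mannose receptor family of Mrc1 (Mrc2, Pla2r1 and Ly75) was low, with 1.131 to 2.27 FPKM summed in a library, and 0 of 3 were called by edgeR. Around Folr2, 11 folate genes were tested, and 1 rose. It was Mthfd2, a mitochondrial folate enzyme, with 5.736 to 5.977 FPKM on day 5 and 14.82 and 12.28 FPKM on day 28 (1.23, SE 0.18, adjusted p = 0.00353). The folate carriers Slc19a1 (2.504 to 4.289 FPKM) and Slc46a1 (1.507 to 2.988 FPKM) were far below Folr2 and were not called (log2 differences 0.55 and 0.15, adjusted p = 0.0837 and 0.817). Folr1, the other folate receptor gene tested, had 5 to 15 fragments per library and was not called (0.81, adjusted p = 0.499, edgeR).

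Of 10 hyaluronan genes tested beside Lyve1, 4 were lower on day 28 and 0 higher, against 965 and 995 of all 12858 genes tested. Hyal1, a lysosomal hyaluronidase, fell from 15.47 to 16.66 FPKM on day 5 to 6.224 and 4.894 FPKM on day 28 (−1.52, SE 0.22, adjusted p = 0.00332, edgeR). Hyal2 fell by 0.56 (SE 0.12, adjusted p = 0.018) and Cd44, the main hyaluronan receptor of leukocytes, by 0.49 (SE 0.13, adjusted p = 0.0344). Has2, a hyaluronan synthase, was called lower too, with 1 and 2 fragments on day 28 and no more than 26 in any library. Over 15 alternative fits, 1 to 4 genes of the list were called lower, and the call was lost in 8 for Has2, in 6 each for Hyal2 and Cd44, and in 0 for Hyal1. At 278.1 and 284.7 FPKM on day 28, Cd44 remained far above Lyve1. Stab1, a scavenger receptor that was once described as a hyaluronan receptor, was at 144.6 to 152.7 FPKM on day 5 and 92.37 and 138.9 FPKM on day 28 and was not called (−0.35, SE 0.18, adjusted p = 0.227).

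Among 10 genes tested that encode phosphatidylserine receptors or bridging proteins, as Timd4 does, 4 rose and 0 fell. Of all 12858 genes tested, 995 rose and 965 fell. Mfge8, a bridging protein between phosphatidylserine and integrins, was at 5.671 to 7.593 FPKM on day 5, 18.67 and 48.68 on day 14, and 96.0 and 131.9 on day 28 (4.15, SE 0.36, adjusted p = 0.000541, edgeR). Axl, a TAM receptor kinase, rose by 1.40 (SE 0.18, adjusted p = 0.00232), Pros1, protein S, by 0.62 (SE 0.11, adjusted p = 0.00803) and Havcr2, TIM-3, by 0.54 (SE 0.16, adjusted p = 0.0476). The call of Havcr2 was lost in 10 of 15 alternative fits, and 2 to 4 genes of the list were called higher over them. Mfge8 and Axl were already higher on day 14 (adjusted p = 0.0134 and 0.0113). Mertk, another TAM receptor, ran from 19.99 to 30.32 FPKM over the 7 libraries and was not called (−0.13, adjusted p = 0.708), nor was Gas6, the TAM ligand (−0.21, adjusted p = 0.519). The Timd4 levels, at most 4.036 FPKM, were below those of Axl and Mertk in every library.

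Of the 4 carbonyl reductase genes related to Cbr2, Cbr3 rose by 1.08 (SE 0.22, adjusted p = 0.0143, edgeR), from 8.498 to 9.855 FPKM on day 5 to 21.29 and 16.67 FPKM on day 28, while Cbr2 fell. Cbr1, Cbr4 and Dcxr were not called (0.13, 0.67 and −0.25, adjusted p = 0.726, 0.126 and 0.445). The call of Cbr3 was lost in 3 of 15 alternative fits. Of 12 scavenger and haem genes tested beside Cd163, 3 were lower and 0 higher, against 965 and 995 of all 12858 genes tested. Besides Cd5l these were Hmox1, the haem oxygenase, with 883 to 1263 FPKM on day 5 and 549.5 and 552.3 FPKM on day 28 (−0.93, SE 0.21, adjusted p = 0.0204), and Blvra, a biliverdin reductase (−0.50, SE 0.11, adjusted p = 0.0198). The call was lost in 4 of 15 alternative fits for Hmox1 and in 6 for Blvra. The ferritin genes Ftl1 (−0.17, adjusted p = 0.397) and Fth1 (−0.09, adjusted p = 0.701) were not called.

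Macrophage and monocyte markers were also followed in the sorted cells. Of the macrophage markers, Emr1, Cd14 and Itgam encode antigens that the sort selected for, so their presence cannot check the label of the cells. Csf1r was at 406.5 to 493.5 FPKM in all 7 libraries and was not called (0.11, SE 0.12, adjusted p = 0.552, edgeR). The 7 macrophage markers summed to 5161 to 5698 FPKM on day 5, 3484 to 4164 on day 14 and 3352 to 3796 on day 28. The largest part of this sum was Cd14 (mean 2766 FPKM on day 5). From day 5 to day 28, 3 of them were lower and 1 higher, against 965 and 995 of all 12858 genes tested. The 3 were Emr1, which encodes F4/80 (−1.01, SE 0.17, adjusted p = 0.0065), Fcgr1 and Cd14. Cx3cr1, the fractalkine receptor, was higher (3.01, SE 0.32, adjusted p = 0.00107), and the median log2 difference was −0.45. The fall of Folr2, Cbr2 and Mrc1 thus stood beside a fall of Emr1 that was of like size, and the differences between these genes were not tested.

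Of 9 monocyte markers tested, 5 were lower on day 28 than on day 5 and 2 higher, against 965 and 995 of all 12858 genes tested. Their median log2 difference was −1.17. Ly6c2 (−2.90, SE 0.66, adjusted p = 0.0206, edgeR), Ly6c1 (−2.70), Plac8 (−2.69) and Vcan (−1.44) were among those that fell. Ccr2, the receptor that brings monocytes out of the marrow, rose by 0.74 (SE 0.18, adjusted p = 0.0259), and Fn1, fibronectin, by 1.38 (SE 0.30, adjusted p = 0.0185). Over 15 alternative fits, 1 to 5 genes of the list were called lower and 0 to 2 higher. The call was lost in 5 each for Ccr2 and Ly6c1, in 4 for Fn1, in 3 for Ly6c2, in 2 for Plac8 and in 0 for Vcan. Summed FPKM of 5 neutrophil markers was 335.5 to 357.9 on day 5, 577.6 to 594.7 on day 14 and 151.9 to 291.3 on day 28. For dendritic cell markers it was 8.185 to 13.04, 10.79 to 24.87 and 19.82 to 30.41, and for T cell markers 3.925 to 5.14, 4.936 to 13.26 and 10.66 to 13.75. The T cell sum was nearly all Cd2, with Cd3e, Cd3d and Cd3g at 0 to 10 fragments in every library, and the largest part of the dendritic cell sum was Ccr7 (mean 17.79 FPKM on day 28). For B cell markers the sum stayed between 4.423 and 10.75 FPKM. The part of these cell types in the results for the 6 genes was not tested.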

How the data were processed

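PolyA+ RNA from sorted macrophages was sequenced as single-end reads. Per the methods and the labels, the authors trimmed reads with cutadapt 1.8, mapped them with TopHat2 2.0.13 to mm10 and a reference annotation without new junctions, and quantified genes with Cuffdiff 2.2.1. Per gene and library, the authors deposited expected counts (estimated fragments before scaling), a signal (the same fragments after 1 scaling factor per library) and FPKM values. How multiply mapped reads were shared is not given in the sources used here, so related genes are less certain.

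Expected counts were rounded, and edgeR 4.0.16 was run on them under R 4.3.3 (TMM, filterByExpr by day, quasi-likelihood F test, 1 fit over 7 libraries, Benjamini-Hochberg adjustment over 12858 genes). Calls had an adjusted p under 0.05. A value at or below 3 fragments was taken as not detected, which covers counting error only. Alternatives were DESeq2 1.42.0, other scaling, no filter, limma 3.58.1 on log2(FPKM + 1) and log2(FPKM + 0.1), only the days compared, a replicate block, leaving out each library and an adjusted p under 0.01.

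The 6 genes, the lists and the naming rule were chosen with earlier results of these data known. From each list the rule named up to 4 genes called higher and 4 called lower between days 5 and 28 whose libraries did not overlap, up to 2 abundant uncalled genes and, for each member, the 2 genes with the most similar profile. Other genes named, among them the folate carriers, Mertk, Pdpn, Flt4, the endothelial, T cell and dendritic cell genes and the macrophage markers, were added outside that rule with their values known. Some listed genes are not reported here. Plots used matplotlib 3.10.9.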

Additional observations from a re-analysis of the deposited data

How the results depend on the processing

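The calls among the 6 genes rest on few libraries. From day 5 to day 28, 3 were called. The number was 4 with DESeq2, 5 with no expression filter, 5 in a fit on the compared days only and 0 at an adjusted p under 0.01, and it ran from 0 to 5 when 1 library was left out. From day 5 to day 14, 0 were called by the edgeR test, 1 by DESeq2, 2 with no expression filter and 0 to 4 with 1 library left out. From day 14 to day 28 leaving out 1 library gave 0 to 4, and for the second step against the first 0 to 2. Over all genes, 614, 8 and 1960 were called in the 3 pairwise comparisons, against 1309, 322 and 2370 by DESeq2 and 1429, 390 and 2466 with no filter. Limma on log2(FPKM + 1) called 252, 0 and 1802.

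For day 28 against day 5, no direction of the 6 genes changed in 90 recomputed values, of which 18 lost and 11 gained a call. Among the other named genes 88 of 600 values lost a call, 17 gained one and 2 changed sign, Fth1 (−0.18 to 0.01, the latter without day 5 replicate 1) and Gas6 (−0.47 to 0, the latter without day 28 replicate 1). The other resident-type genes called lower numbered 3 to 12 over the alternatives, against 7, and those called higher 2 to 5, against 3.

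Other signs changed with the day 14 libraries. The log2 difference between days 28 and 14 was 0.10 for Mrc1, 0.07 for Folr2, 0.20 for Cbr2 and 0.82 for Cd163 without day 14 replicate 1, the highest values of the fits that left out 1 library, and −0.60, −0.84, −0.90 and −1.04 without day 14 replicate 2, the lowest. Between days 14 and 5, Lyve1 ran from −0.67 to 1.12 and Cd163 from −1.64 to 0.22, the first value without day 14 replicate 1 and the second without day 14 replicate 2. The second step minus the first was −0.48 for Mrc1, −0.65 for Folr2, −0.75 for Lyve1, −0.67 for Cbr2 and −1.26 for Cd163 without day 14 replicate 2, and 0.93, 1.17, 2.83, 1.55 and 2.46 without day 14 replicate 1. Without day 28 replicate 2 it was −0.02 for Folr2 and −0.03 for Cd163. Timd4 between days 14 and 5 was −0.10 without day 5 replicate 1, −0.07 without day 5 replicate 3, −0.09 without day 14 replicate 2 and at most 0.38 (without day 5 replicate 2). Causes were not tested.

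Replicate numbers were checked as pairs. Over 7613 genes, the libraries with a shared number deviated from the means of their days with correlations of 0.175 and 0.045 (days 5 and 14), 0.084 and 0.025 (days 5 and 28) and −0.054 and −0.054 (days 14 and 28), so the numbers were not taken to pair the samples. With the replicate block, 2 residual degrees of freedom were left in place of 4, and 1 of the 6 genes was called from day 5 to day 28, Lyve1 (1.92, adjusted p = 0.0248, edgeR). Over all genes the block left 735 calls there, 6 between days 14 and 5 and 0 between days 28 and 14, and Timd4 between days 14 and 5 was −0.06.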
